A study of Homo sapiens with 12 samples.

Results

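SCD, ACSL6, DGAT1, PLIN4 and G0S2 are 5 genes of fatty acid desaturation, activation and storage. They were taken by symbol from the deposited gene tables of an RNA-seq study of DU145 cells, a line derived from a human prostate carcinoma. All 5 were found among the 1424 genes and loci of the ATOH8 table, and 0 of them among the 1810 genes of the RSL3 table, where no listed gene overlapped any of the 5 loci. The study had 12 libraries in 4 groups of 3. In the first pair of groups, DU145 cells labelled WT were given RSL3 for 24 h and compared with cells given DMSO. In the second pair, cells that overexpressed ATOH8 (oeATOH8) were compared with control cells (oeCTRL). The labels give no dose, construct, promoter or clone, and do not say whether replicates were separate cultures, so the error between libraries may be technical. Both tables hold genes that the authors had called changed, and the 5 genes were chosen with their ATOH8 values known. Their levels and fold changes are therefore given as a description, with no test.

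Monounsaturated fatty acids are made from saturated ones by SCD, the stearoyl-CoA desaturase of the endoplasmic reticulum. They are poor substrates for the lipid peroxidation that drives ferroptosis, the iron-dependent cell death that RSL3 triggers by inhibiting GPX4. Fatty acids have to be joined to coenzyme A by acyl-CoA synthetases, such as ACSL6, before they can be used. They can be stored as triglyceride, whose last acylation is carried out by DGAT1 and DGAT2, in droplets coated by perilipins such as PLIN4. They are released again by adipose triglyceride lipase (gene PNPLA2), which G0S2 inhibits.

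ATOH8 is a basic helix-loop-helix factor, and proteins of that family bind E-boxes, spelled CANNTG. The windows from 250 bases before to 50 bases after the gene start are shown so that these letters can be seen in the genes that moved with ATOH8. They come from RefSeq (GRCh38.p14), run 5′ to 3′ on the gene's strand, and have each CANNTG in capitals. A window was held for 4 of the 5 genes, and for ACSL6 the first of 7 start sites is given.
SCD, chr10:100346983-100347282, plus strand: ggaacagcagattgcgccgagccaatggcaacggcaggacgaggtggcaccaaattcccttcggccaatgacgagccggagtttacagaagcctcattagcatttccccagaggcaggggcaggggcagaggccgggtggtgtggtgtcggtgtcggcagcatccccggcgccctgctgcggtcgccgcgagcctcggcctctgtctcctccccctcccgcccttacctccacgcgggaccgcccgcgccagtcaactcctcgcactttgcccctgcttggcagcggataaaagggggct
ACSL6, chr5:132012164-132012463, minus strand: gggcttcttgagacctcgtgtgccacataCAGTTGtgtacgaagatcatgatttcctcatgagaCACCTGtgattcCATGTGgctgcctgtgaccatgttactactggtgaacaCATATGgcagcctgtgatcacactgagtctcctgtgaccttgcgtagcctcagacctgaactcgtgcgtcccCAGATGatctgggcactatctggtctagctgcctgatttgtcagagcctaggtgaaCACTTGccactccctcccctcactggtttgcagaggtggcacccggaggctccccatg
PLIN4, chr19:4518437-4518736, minus strand: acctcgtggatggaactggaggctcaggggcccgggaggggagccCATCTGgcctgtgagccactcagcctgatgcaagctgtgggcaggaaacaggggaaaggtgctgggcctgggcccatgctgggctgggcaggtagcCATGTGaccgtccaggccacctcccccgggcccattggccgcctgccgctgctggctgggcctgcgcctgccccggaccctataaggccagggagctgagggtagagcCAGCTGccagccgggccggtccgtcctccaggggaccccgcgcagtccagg
G0S2, chr1:209675162-209675461, plus strand: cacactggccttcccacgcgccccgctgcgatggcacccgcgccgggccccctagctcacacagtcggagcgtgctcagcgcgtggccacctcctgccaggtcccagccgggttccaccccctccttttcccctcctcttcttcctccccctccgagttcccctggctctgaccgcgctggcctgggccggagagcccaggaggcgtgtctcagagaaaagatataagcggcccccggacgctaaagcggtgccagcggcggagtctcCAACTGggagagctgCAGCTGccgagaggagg
The SCD window held 0 matches to CANNTG on either strand, whereas 68.7% of all 35116 RefSeq windows of this length held at least 1. The ACSL6 window held 6, a number reached by 0.615% of windows. They included CATATG at position -136 counted from the start site as 1 (present in 3.04% of windows) and CAGATG at -64 (14.7%). The CAGGTG spelling was there too, as CACCTG at -186 (20.6%). Matches at the other ACSL6 start sites are not given here. PLIN4 had 3 matches, a number reached by 15.3% of windows, and G0S2 had 2, reached by 36.4%. PLIN4 also held the CAGATG spelling, as CATCTG at -205, and each of these windows held 1 CAGCTG (17.9% of windows), at -1 in PLIN4 and at 34 in G0S2. CCAAT or its reverse complement occurred 2 times in SCD, at -229 and -186, and 1 time in PLIN4, against 34.6% of windows with at least 1. None of the 4 windows held TATAAA (11.5% of windows), CACGTG (7.26%) or TCACNCCAC, a spelling of the sterol regulatory element (1.13%). These matches describe letters in short windows and were not compared with binding data.

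SCD, the desaturase, was the most abundant of the 5 genes in control cells and had less RNA with ATOH8. Scaled to a common depth, it read 13461, 13487 and 13634 in the oeATOH8 libraries, against 36875, 37355 and 38979.9 in the oeCTRL libraries. The 3 oeATOH8 libraries varied by 0.690% (SD over mean), and the groups were far apart. Mean levels were 13527 ± 93.4 in oeATOH8 and 37736 ± 1103 in oeCTRL (SD, n = 3 each), 2.79-fold lower with ATOH8 (log2 fold change -1.48, SE 0.03). Of the 835 genes and loci lower with ATOH8, SCD had the 379th largest fold, but the 3rd largest difference in scaled reads among them, -24209 per library. In bulk RNA, fewer cells of a type and less RNA per cell cannot be told apart. SCD (ENSG00000099194) lies on the plus strand of chromosome 10, 100347124 to 100364834 on GRCh38. The processed pseudogene SCDP1 may share reads with it.

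ACSL6, the acyl-CoA synthetase, had few reads. It had 28, 34 and 41 reads in the oeATOH8 libraries, against 124, 132 and 124 in the oeCTRL libraries. Every oeATOH8 library was below every oeCTRL library, but at low depth. After scaling, the means were 33.97 ± 6.33 in oeATOH8 and 128 ± 8.22 in oeCTRL (SD, n = 3 each), 3.77-fold lower with ATOH8 (log2 -1.91, SE 0.26). Counting error alone in oeATOH8 was 17.1% of the value, close to the 18.6% spread seen between the oeATOH8 libraries. ACSL6 (ENSG00000164398) is on the minus strand of chromosome 5, 131949973 to 132012243. The GENCODE gene AC026398.1 shares 2009 exon bases with it on the same strand, so some reads could belong to either.

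DGAT1, which completes triglyceride synthesis, was higher with ATOH8. It had 1027, 1028 and 1124 reads in the oeATOH8 libraries, against 543, 413 and 521 in the oeCTRL libraries. Replicate 2 was the low library of the control group, which gave DGAT1 a spread of 12.1% there, beyond a counting error of 4.51%. Scaled means were 1048 ± 46.2 in oeATOH8 and 497 ± 59.98 in oeCTRL (SD, n = 3 each), 2.11-fold higher with ATOH8 (log2 1.08, SE 0.10). On this scale the table holds nothing between log2 ratios of -1.001 and 1.001, so DGAT1 was close to its edge, with the 467th largest fold among 589 higher genes and loci. DGAT1 (ENSG00000185000) is on the minus strand of chromosome 8, 144314584 to 144326910, and its exons overlap those of HSF1 on the opposite strand by 139 bases and those of AC233992.1 on the same strand by 444. The strandedness of the libraries is not given, so reads from those bases could belong to any of these genes.

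PLIN4, a perilipin with amphipathic repeats that coat droplets, was lower with ATOH8. It had 108, 92 and 84 reads in the oeATOH8 libraries, against 437, 392 and 442 in the oeCTRL libraries. The groups were well apart, with the highest oeATOH8 library at 108 reads and the lowest oeCTRL library at 392. Scaled means were 93.7 ± 11.8 in oeATOH8 and 428 ± 24.6 in oeCTRL (SD, n = 3 each), 4.57-fold lower with ATOH8 (log2 -2.19, SE 0.16), the largest fall of the 3 lower genes. PLIN4 (ENSG00000167676) is on the minus strand of chromosome 19, 4502180 to 4518465, and 32 bases of its exons overlap HDGFL2 on the opposite strand. PLIN5, its nearest protein-coding neighbour on the same strand at 4066 bases, was not in the table, nor were PLIN1, PLIN2 and PLIN3.

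G0S2, the inhibitor of adipose triglyceride lipase, was higher with ATOH8, with the largest fold of the 5 on this scale. With libraries scaled by their totals its log2 fold change of 2.06 was smaller in size than those of PLIN4 (-2.65) and ACSL6 (-2.37). It had 7083, 6712 and 6513 reads in the oeATOH8 libraries, against 1167, 1126 and 1174 in the oeCTRL libraries. The control libraries were tight, and each oeATOH8 library was far above all of them. Scaled means were 6699 ± 329 in oeATOH8 and 1168 ± 37.9 in oeCTRL (SD, n = 3 each), 5.73-fold higher with ATOH8 (log2 2.52, SE 0.07) and the 28th largest fold among the 589 higher genes and loci. G0S2 (ENSG00000123689) is a short gene on the plus strand of chromosome 1, 209675420 to 209676388. Its target gene PNPLA2 was not in either table.

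**Figure D1:**
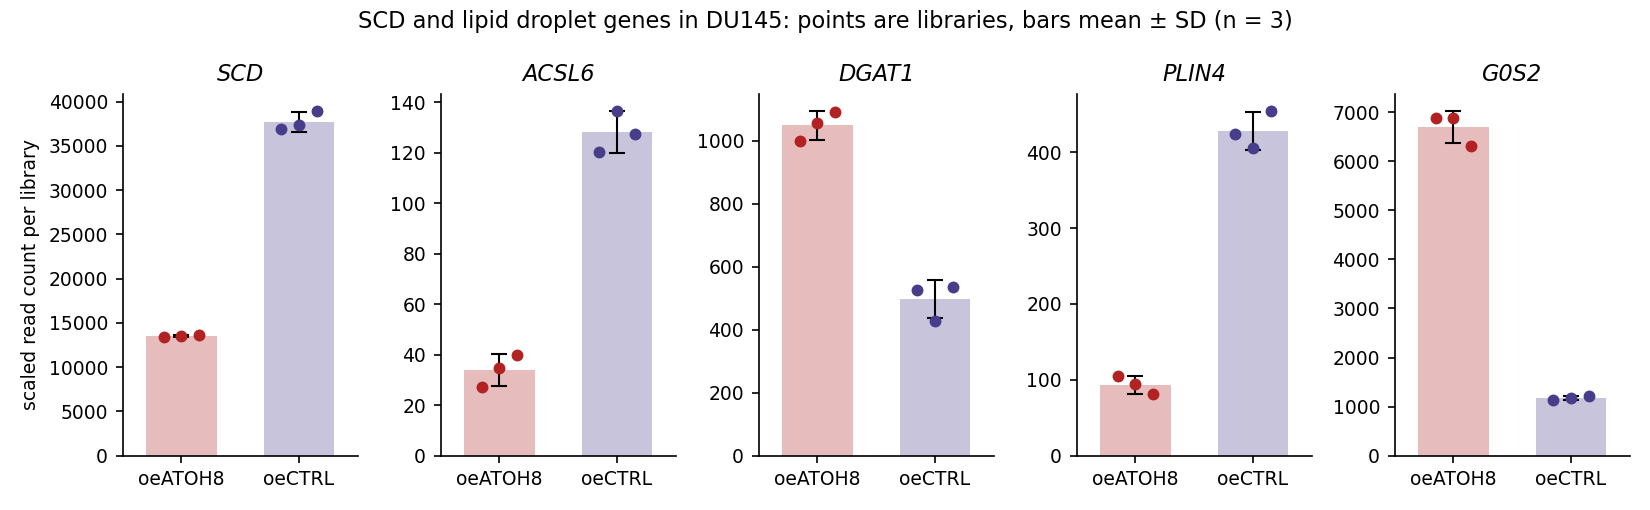
Scaled read counts (vertical axes, each starting at 0) of the 5 genes in the 3 oeATOH8 and 3 oeCTRL libraries, with bars at the mean and error bars of 1 SD. DGAT1 and G0S2 are higher in oeATOH8, and SCD, ACSL6 and PLIN4 are lower, with no overlap between groups in any of the 5.

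The groups did not overlap for 5 of the 5 genes. The same was true of 99.6% of the listed genes and loci, as a table of called genes would give, so this count says nothing particular about these genes. Of the 5, 2 were higher, as were 41.4% of the table, and 3 were lower, as were 58.6%, with a median absolute log2 ratio of 1.92 against 1.33. The sizes depend on how libraries are scaled, since only changed genes are listed. The depth of each group was set so that the empty interval between higher and lower genes was centred on 0. With scaling by library totals, by TMM or by DESeq2 size factors over the listed genes, the median log2 fold change of the whole table shifted by -0.46, 0.30 and 0.91. SCD was then at -1.94, -1.17 and -0.57, and DGAT1 at 0.62, 1.38 and 1.99. All 5 genes kept their direction under the 4 scalings. Each shift was smaller than the distance from 0 to the edge of the empty interval (1.001). Listed genes thus could not cross 0, and the kept direction says nothing particular about these 5.

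**Figure D2:**
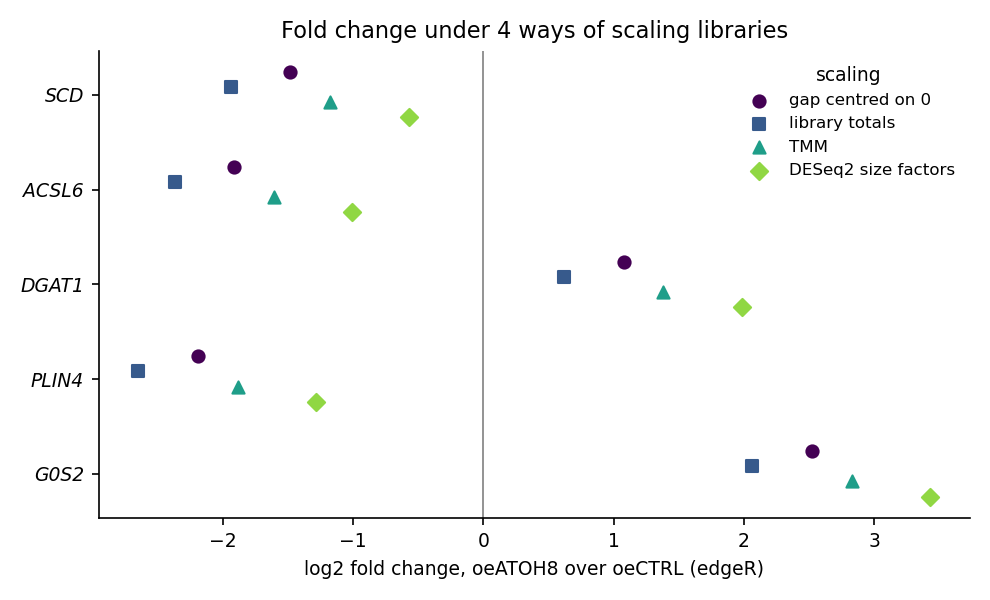
Log2 fold change of the 5 genes, oeATOH8 over oeCTRL (horizontal axis), under 4 ways of scaling libraries, 1 symbol per scaling. The symbols of a gene shift together, SCD ranging from -1.94 to -0.57 and G0S2 from 2.06 to 3.43, and no gene crosses 0. The shifts are smaller than the empty interval on either side of 0, so no listed gene could cross it.

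Levels were compared between genes as scaled reads per kb of exon, using the union of GENCODE exons. In oeATOH8 cells the order was G0S2 (7736 ± 380.0), SCD (2523 ± 17.4), DGAT1 (254 ± 11.2), PLIN4 (14.4 ± 1.81) and ACSL6 (2.61 ± 0.486). In oeCTRL cells it was SCD (7038 ± 206), G0S2 (1349 ± 43.7), DGAT1 (120.2 ± 14.5), PLIN4 (65.8 ± 3.79) and ACSL6 (9.85 ± 0.632). All neighbours in both orders differed by more than their SDs (n = 3 libraries each). SCD and G0S2 thus changed places at the top, while the other 3 kept theirs. Among the 1152 annotated genes of the table, G0S2 ranked 18th per kb in oeATOH8 and 68th in oeCTRL, and SCD ranked 58th in oeATOH8 and 8th in oeCTRL.

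**Figure D3:**
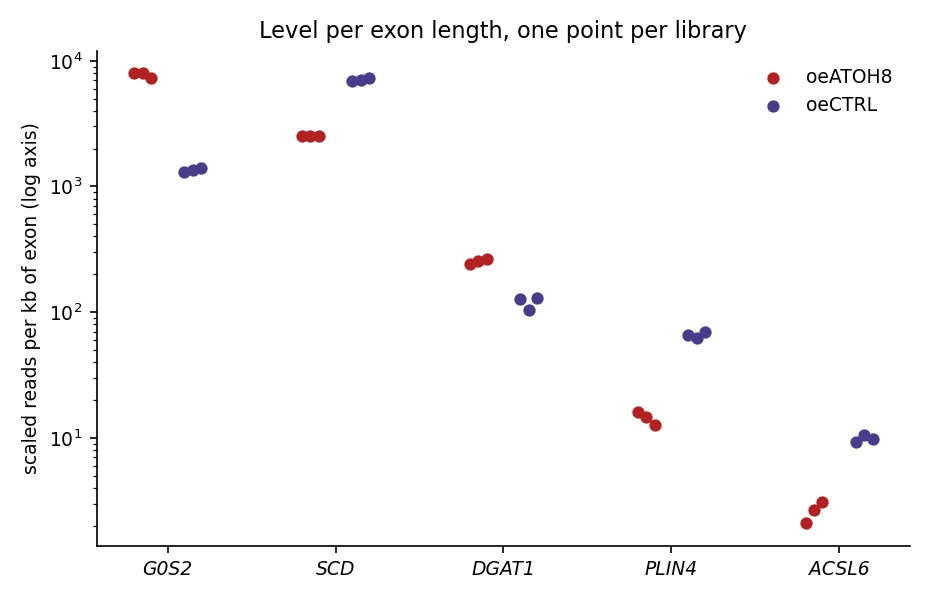
Scaled reads per kb of exon (log axis) of the 5 genes, 1 point per library, with oeATOH8 left of oeCTRL for each gene. G0S2 lies above SCD in oeATOH8 and below it in oeCTRL.

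Ratios between genes of 1 library do not depend on any scaling. Per kb, G0S2 was 3.17, 3.16 and 2.87 times SCD in the oeATOH8 libraries, against 0.190, 0.193 and 0.192 times SCD in the oeCTRL libraries, a 16.0-fold difference in the ratio. DGAT1 was 0.101 ± 0.00385 of SCD in oeATOH8 and 0.0171 ± 0.00195 of SCD in oeCTRL (SD, n = 3 each), a 5.89-fold difference. The terminal triglyceride enzyme and the lipolysis inhibitor were thus both higher relative to the desaturase in every oeATOH8 library. That direction was fixed by the choice of genes, as for any higher gene of the table set against any lower one. PLIN4 was lower relative to SCD, at 0.00571 ± 0.000755 of it in oeATOH8 and 0.00935 ± 0.000346 in oeCTRL. The ratio of PLIN4 to ACSL6 was 7.72, 5.42 and 4.10 in oeATOH8, against 7.05, 5.94 and 7.13 in oeCTRL, and these overlapped.

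Of the 1040 other named genes with a mean of at least 50, those nearest to each of the 5 in profile were found by the root mean square difference in centred log2 level over the 6 libraries. SCD was nearest to EIF2AK2, the double-stranded RNA-activated kinase PKR (0.0265), ARNT2 (0.0282) and GBP2, an interferon-induced GTPase (0.0431). EIF2AK2 was 2.81-fold lower with ATOH8, at 4334 ± 87.6 in oeATOH8 and 12169 ± 584 in oeCTRL. The genes nearest to ACSL6 were ENPP5 (0.0992), IDI1, an isomerase of isoprenoid and cholesterol synthesis (0.106), and the histone gene H2BC12 (0.11). For PLIN4 they were complement C3 (0.0917) and the HSP70 family genes HSPA1A (0.101) and HSPA2 (0.104). DGAT1 was nearest to SLC25A10, the mitochondrial dicarboxylate carrier (0.044), SEMA7A (0.0536) and B4GALT2 (0.058). G0S2 had more distant neighbours, the metallothioneins MT2A (0.1001) and MT1E (0.164) and the stress gene GADD45B (0.122). MT2A was 5.24-fold higher with ATOH8, at 17876 ± 1732 in oeATOH8 and 3410.2 ± 191 in oeCTRL. With 6 libraries in 2 groups this likeness is mostly likeness in the size of the change, and reads of the metallothionein, histone and HSPA1A genes may be shared with near-identical relatives.

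Protein-coding genes within 50 kb were also looked up, after the values had been seen. DGAT1 had 9, of which the ribosome biogenesis factor BOP1 (2.71-fold higher, 4621 ± 187 in oeATOH8 and 1702 ± 19.5 in oeCTRL) and FBXL6 (2.34-fold higher, 798 ± 56.8 and 340.5 ± 59.8) were in the ATOH8 table, in the same direction as DGAT1. BOP1 was in the RSL3 table too, 1.74-fold higher with a limma adjusted p of 0.0503 (0.00347 with the replicate number as a block). G0S2 had 2, of which the laminin gene LAMB3 was 2.89-fold higher, at 72123 ± 2917 in oeATOH8 and 24921 ± 717 in oeCTRL. None of the 10 such neighbours of SCD, ACSL6 and PLIN4 was in the ATOH8 table. OLMALINC, a long noncoding RNA gene 8679 bases from SCD that has been linked to SCD expression in human liver cells, was in the RSL3 table. It read 250.5, 175 and 126 with RSL3, against 265, 293 and 326 with DMSO, and was 1.60-fold lower with RSL3, with a limma adjusted p of 0.0463 (0.0373 with the replicate number as a block, and 1 with all 58735 annotated genes counted as tests). OLMALINC differed little in the replicate 1 pair, and 82.0% of the genes tested passed limma. SCD itself was not listed in the RSL3 table.

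Around the 5 genes, 8 lists of lipid genes held 208 others, of which 9 were in the ATOH8 table, 3 higher and 6 lower. All 9 passed edgeR's quasi-likelihood test over the table (adjusted p from 3.58e-09 to 0.00122), as did 100% of the listed genes and loci, so passing sets none of them apart. HACD4 and PLAAT4 no longer passed when libraries were scaled by DESeq2 size factors (log2 fold change -0.31 and -0.36), a setting under which 70.7% of the table passed. A count of 71239 tests was also taken as an upper bound. It joins the 58735 annotated genes to 12504, the highest number given to an assembled locus. With it, 8 of the 9 passed against 82.2% of the table, and PLAAT4 (edgeR adjusted p = 0.061) did not. INSIG1, which retains the sterol sensor SCAP in the endoplasmic reticulum and is itself a sterol-regulated gene, fell 3.62-fold (560.5 ± 34.7 in oeATOH8 and 2030 ± 137 in oeCTRL). HACD4, an acyl-CoA dehydratase of fatty acid elongation, fell 2.33-fold (126 ± 20.2 and 293 ± 31.5). FASN, ACACA, ACLY, SREBF1, FADS1 and FADS2, core genes of lipogenesis and desaturation, were not in the table and are not analysed here. CEBPB, a transcription factor of early adipocyte differentiation, rose 2.02-fold (8827 ± 301 and 4372 ± 498).

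ANGPTL4, a secreted inhibitor of lipoprotein lipase that is induced by fatty acids through PPAR receptors, rose 2.54-fold (2824 ± 87.3 in oeATOH8 and 1113 ± 39.6 in oeCTRL). With G0S2 it made up the lipolysis list, 2 of 19 genes in the table, both higher, as were 41.4% of the listed genes and loci, with G0S2 chosen with its value known. The triglyceride synthesis list had 1 of 26 genes in the table (DGAT1), the droplet coat list 1 of 25 (PLIN4) and the list of activation, thioesterases and uptake 1 of 35 (ACSL6). Of the 34 fatty acid oxidation genes, ACAD9, an acyl-CoA dehydrogenase that also assembles respiratory complex I, rose 2.20-fold (1529 ± 15.5 and 696 ± 77.9), and CPT1C, a brain-type relative of carnitine palmitoyltransferase, fell 3.46-fold (33.2 ± 10.1 and 115 ± 20.8). Of 22 phospholipid remodelling genes 3 were in the table, all lower, as were 58.6% of the listed genes and loci. They were LPCAT1, which reacylates lysophosphatidylcholine with saturated chains in lung (2.35-fold, 4958 ± 291 and 11674 ± 215), the arachidonate-releasing phospholipase PLA2G4A (3.90-fold, 18.1 ± 6.36 and 70.4 ± 16.2) and PLAAT4 (2.40-fold, 33.7 ± 1.48 and 80.9 ± 14.96). Pairs of values in this paragraph are oeATOH8 first, as scaled means ± SD over n = 3 libraries.

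**Figure D4:**
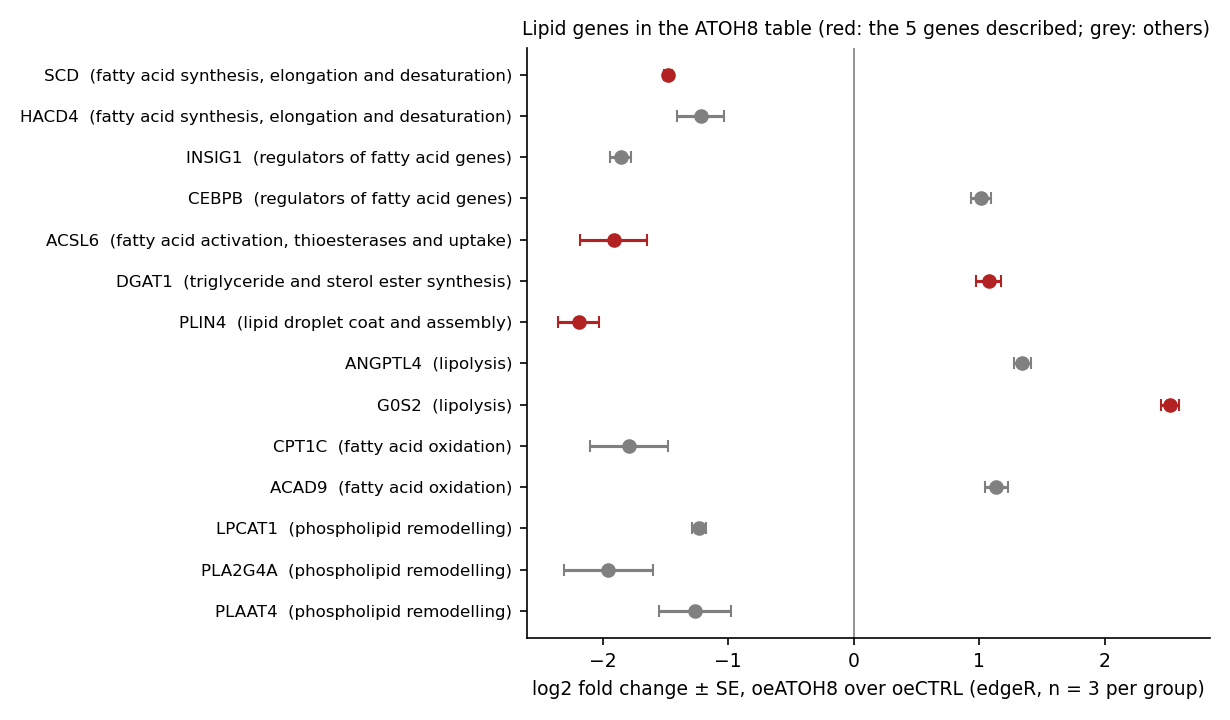
Log2 fold change with its standard error (horizontal axis, oeATOH8 over oeCTRL) of the 14 lipid genes in the ATOH8 table, grouped by list, the 5 described genes in red and the 9 others in grey. G0S2 at 2.52 is the highest and PLIN4 at -2.19 the lowest.

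ATOH8 itself had 76508, 72569 and 76043 reads in the oeATOH8 libraries and 13, 10 and 4 in the oeCTRL libraries, as their labels say. Reads summed over listed genes ranged from 2083678 to 2226518 in oeATOH8 and from 1508188 to 1605910 in oeCTRL, and the depth of whole libraries is unknown. Of 10 adipocyte markers 0 were listed, and of 10 leukocyte markers 0. Of 10 erythroid markers 3 were listed, and their summed reads ran from 3141 to 56662 in oeATOH8 and from 4 to 13 in oeCTRL. HBB had 24191, 1411 and 5593 reads in oeATOH8 and 0 in each oeCTRL library. Of 10 fibroblast and endothelial markers 2 were listed, both higher (127 to 202 summed reads in oeATOH8 and 0 to 10 in oeCTRL), and of 18 epithelial markers 2, KRT8 and CDH1, both lower (6149 to 6531 and 16611 to 17667). The part of these markers in the lipid gene values was not tested.

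In the RSL3 table, which sets cells given the ferroptosis inducer against cells given its vehicle, the 5 genes were absent and their levels are not analysed here. Of the 208 other lipid genes 17 were listed, 10 higher and 7 lower, with the same sign in all 3 same-numbered pairs of libraries, as had 99.1% of the listed genes. The groups did not overlap for 16 of the 17, against 86.4% of listed genes. By limma over the table, 15 passed, against 82.0% of the genes tested, with 9 higher (43.1% of those tested) and 6 lower (38.9%). Scaled by totals, TMM or DESeq2 size factors over listed genes, 5, 9 and 9 passed, against 36.7%, 53.5% and 51.8% of the genes tested. Of these lipid genes 1, 2 and 2 were higher, and of all genes called 24.2%, 30.0% and 28.8%. With the replicate number as a block 17 passed, as did 99.3% of the genes tested, ACLY and CEBPB having missed by limma without it (adjusted p = 0.063 and 0.0558). With all 58735 annotated genes counted as tests 0 of the 17 passed by limma (0 with the block) or by edgeR on recovered reads, and 0.115% of the table passed by limma. An unadjusted p under 0.05 was reached by 15 of the 17 in either fit, against 1554 (limma) and 1636 (edgeR) of the 1732 genes tested. Without DMSO replicate 2 or 3, 0 of the 17 passed. In each of these 2 runs 7 had an unadjusted limma p under 0.05, against 716 and 706 of all genes tested. Without RSL3 replicate 1, 2 or 3, 9, 2 and 2 passed. The numbers that passed over all 1732 genes tested were 6 and 8 without DMSO replicate 2 or 3, and 975, 330 and 310 without RSL3 replicate 1, 2 or 3. Replicates 2 and 3 were nearly alike, since a chi-square statistic divided by its degrees of freedom was 1.78 between the RSL3 pair and 1.63 between the DMSO pair, whereas pairs with replicate 1 gave 58.1 to 95.6. These groups may hold fewer than 3 independent samples. Of the marker lists, CD74 (2.57-fold lower) of 10 leukocyte genes and CDH1 (4.34-fold lower) of 18 epithelial genes were in this table and passed limma. CD68, the other listed leukocyte gene, did not pass (limma adjusted p = 0.0538), and its groups overlapped, at 4290.3, 1535 and 1498 with RSL3 and 1607, 829 and 787 with DMSO. The part of these markers in the lipid gene values was not tested.

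Among the droplet genes, BSCL2, which encodes seipin, the protein that organises droplet budding, read 2353, 1338 and 1390 with RSL3, against 939.7, 537 and 569.9 with DMSO. Replicate 1 was highest in both groups, and the fold change was alike in the 3 same-numbered pairs (log2 1.32, 1.32 and 1.28). BSCL2 was 2.48-fold higher with RSL3 (limma adjusted p = 0.0218), and FITM2, which also takes part in droplet budding, was 1.48-fold lower (0.0461). Of the fatty acid synthesis list, HACD1 (1.81-fold, limma adjusted p = 0.0256) and the mitochondrial enzyme MCAT (1.63-fold, 0.0482) were higher, but neither passed when scaled by totals, TMM or DESeq2 size factors (limma adjusted p of 0.219, 0.0558 and 0.0522 for HACD1 and 0.145, 0.0991 and 0.108 for MCAT), and the elongase ELOVL2 was 1.94-fold lower. In the other lists, NR1H3, the lipid-sensing receptor LXR alpha, read 734, 233 and 208 with RSL3, against 169, 114 and 122 with DMSO, and was 2.90-fold higher. Replicate 1 carried much of this, since the log2 fold change was 1.30 with that RSL3 library and 0.72 without it, and NR1H3 did not pass under the other scalings (limma adjusted p of 0.0876, 0.066 and 0.0743). LIPG, the endothelial lipase, was 3.09-fold lower. LPCAT3 was 1.47-fold lower (limma adjusted p = 0.0442). ACSS1, CEBPA, ACOT7 and TMT1B were higher (1.83-, 1.81-, 1.45- and 1.45-fold), but none of them passed under the other scalings. PLA2G4C was 3.21-fold higher at low depth (34.1 ± 17.8 with RSL3 and 10.6 ± 1.77 with DMSO). INSIG1, CEBPB and CPT1C were in both tables. INSIG1 was 1.58-fold lower and CPT1C 2.06-fold lower with RSL3, and CEBPB was 1.58-fold higher without passing the test (5481 ± 1748 with RSL3 and 3472 ± 897 with DMSO). The tables share no libraries and were normalised separately. Scaled by totals, FITM2, ELOVL2, INSIG1 and PLA2G4C did not pass in the RSL3 table (limma adjusted p of 0.0569, 0.0641, 0.0502 and 0.0622). Each of them passed by TMM and by DESeq2 size factors. ACLY, which had missed, passed by totals, TMM and DESeq2 size factors (limma adjusted p of 0.0438, 0.0246 and 0.0218).

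**Figure D5:**
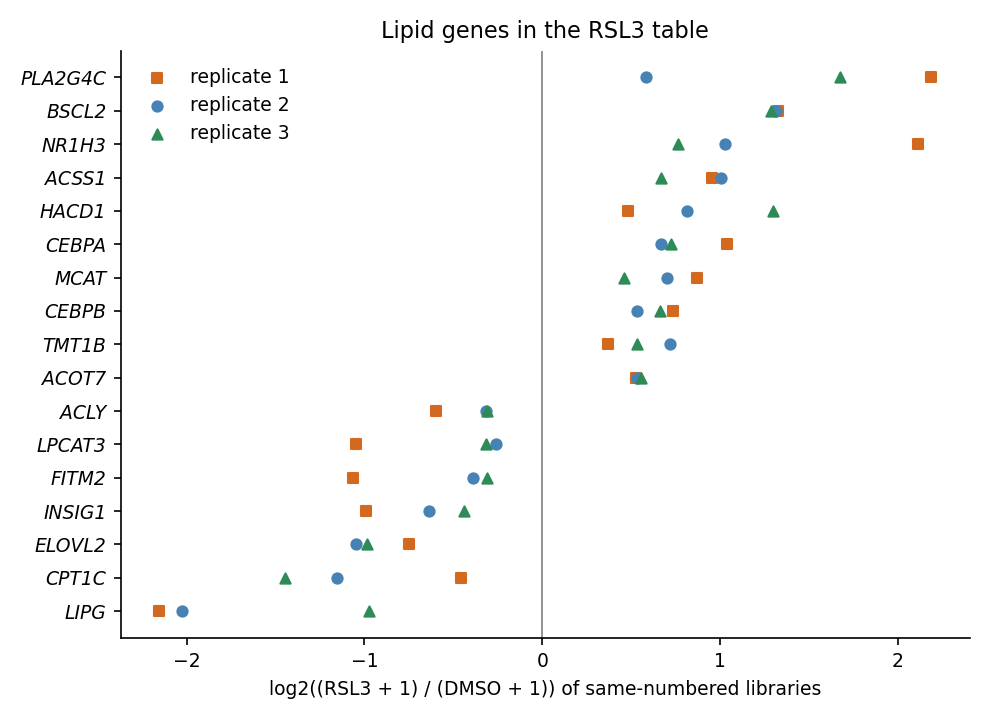
Log2 ratio of RSL3 over DMSO in same-numbered libraries (horizontal axis, 1 added to each value) for the 17 lipid genes in the RSL3 table, 1 symbol per replicate. All 3 symbols lie on the same side of 0 for each gene, and their distance from each other varies, from nearly none in BSCL2 and ACOT7 to wide in NR1H3 and PLA2G4C.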

How the data were processed

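RNA of DU145 libraries was sequenced after TRIzol extraction, per the labels' protocols. Per the submitters' processing notes, StringTie, HISAT2, DESeq2 and fastp were used on build GRCh38, and their versions and the strandedness are not given in the sources used here. As deposited, the ATOH8 file gives raw counts per gene. Its OE columns were taken as oeATOH8 and its NC columns as oeCTRL. As deposited by the authors, the RSL3 file gives a normalised signal for each gene, named by position. All values were whole multiples of 1 step per library (100% within 0.001), as read counts divided by a size factor are, and edgeR on the recovered reads called 1561 genes.

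Of 1152 Ensembl identifiers 1137 had a symbol. Of the RSL3 genes 1351 were named from RefSeq and 396 from GENCODE by an overlap of at least 0.5 of the joint span, and 63 stayed unnamed. Exon lengths and coordinates came from GENCODE release 29.

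The quasi-likelihood test of edgeR (version 4.0.16) was run on the ATOH8 counts. Median ratios scaled the libraries within each group, and the groups were set so that the gap in log2 ratios, at -0.97 to 1.03 before, was centred on 0. For RSL3, log2(value + 1) was tested by limma with a variance trend (version 3.58.1), after filterByExpr (minimum count 10, total 15) left 1732 genes. Fold changes are ratios of group means, and log2 fold changes come from the fits. Standard errors for ATOH8 were derived as the absolute log2 fold change over the square root of the quasi-likelihood F statistic. P-values are two-sided and Benjamini-Hochberg adjusted, with a threshold of 0.05 (R 4.3.3), and the code was tested on simulated data. DESeq2 (version 1.42.0) was an alternative for the counts.

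Same-numbered libraries deviated together in the RSL3 table (correlations of 0.68, 0.61 and 0.61). Correlations between libraries of unlike number were not computed. Replicate 1 stood apart from the others in both groups, so pairing by number is not established. The members and the gene lists were chosen with earlier results of these data known. Named were the 5 genes, ATOH8, each lipid gene in a table, and the 3 genes nearest to each member in profile; genes within 50 kb were added after the values were seen.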

Additional observations from a re-analysis of the deposited data

How the results depend on the processing

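The 5 lipid genes kept their direction under every alternative run. For the scalings this was fixed in advance, since they shifted the table by less than 1.001, the edge of the gap. The runs without 1 library centred the gap on 0 again, so the direction kept there says nothing particular about these 5 either. Scaled by library totals, TMM and DESeq2 size factors over the listed genes, the log2 fold change was -1.94, -1.17 and -0.57 for SCD, -2.37, -1.61 and -1.003 for ACSL6, 0.62, 1.38 and 1.99 for DGAT1, -2.65, -1.88 and -1.28 for PLIN4, and 2.06, 2.83 and 3.43 for G0S2. Those scalings take listed genes as unchanged on balance. Leaving out 1 library gave -1.56 to -1.44 for SCD, -2.02 to -1.73 for ACSL6, 1.0002 to 1.15 for DGAT1, -2.27 to -2.08 for PLIN4 and 2.43 to 2.58 for G0S2. Of genes called with ATOH8, 41.4% were higher, or 58.5% with DESeq2 size factors. Same-numbered libraries correlated at 0.041, 0.053 and 0.074 in that table, and with the replicate number as a block it still had 1424 calls, with 9 of the 9 other lipid genes.

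RSL3 calls numbered 1421 (52.6% higher), and 636, 926 and 898 (24.2%, 30.0% and 28.8% higher) when scaled by totals, TMM and DESeq2 size factors, with 5, 9 and 9 lipid genes against 15. The median log2 fold change of that table was 0.51, and 0.04, 0.22 and 0.20 under those scalings. When all annotated genes counted as tests, an alternative added after seeing the data, 2 genes passed by limma, 2 with the block and 0 by edgeR on recovered reads, and 0 lipid genes in each. Leaving out 1 library gave 6 to 1445 genes and 0 to 13 lipid genes. With the replicate number as a block 1720 genes and 17 lipid genes passed, and without replicate 1 in both groups, added later, 1713 and 17. The causes were not tested. Depth limits ACSL6 most, at 28 to 41 reads in oeATOH8.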
